A study of Homo sapiens with 12 samples.

Results

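The 9 genes described here encode the lamins (LMNA, LMNB1 and LMNB2), the lamin B receptor (LBR), the high mobility group box proteins HMGB1, HMGB2 and HMGB3, and the AT-hook proteins HMGA1 and HMGA2. They were chosen by symbol from a table of 16383 genes, and all 9 were among the 11242 genes that entered the tests, for which the mean over libraries had to reach 10 normalized counts. The cells were IMR90, a human lung fibroblast line of wild-type genotype, and poly(A) RNA from TRIzol extracts was sequenced in 4 groups of 3 libraries. The proliferating group had no treatment. The other 3 groups had been made senescent with 20 Gy of ionizing radiation given over 10 min and were harvested 11 days later. From day 4 they had received, on days 4, 6, 8 and 10, either DMSO, 2 µM palbociclib (which inhibits CDK4 and CDK6, kinases that drive entry into S phase) or 2 µM ruxolitinib (which inhibits JAK kinases). Irradiation, the culture after it and the DMSO or inhibitor given separate every senescent group from the proliferating cells. Their parts in a difference cannot be told apart. Nothing in the labels says that the 3 libraries of a group came from separate cultures, so p-values measure the spread between these libraries only, which may be technical.

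Lamins polymerise into the meshwork under the inner nuclear membrane that holds the nucleus in shape and anchors heterochromatin. A-type lamins come from LMNA, whose alternative transcripts give lamin A and lamin C, and B-type lamins come from LMNB1 and LMNB2. LBR is an inner nuclear membrane protein that binds B-type lamins and the heterochromatin protein HP1, and its membrane part is a sterol reductase. HMGB proteins bend DNA, and HMGB1 also acts as an alarm signal when it leaves the cell. HMGA proteins bind the minor groove of AT-rich DNA and are known as structural parts of the heterochromatin foci of senescent fibroblasts. Loss of lamin B1 and of nuclear HMGB1 and HMGB2 is widely used to mark senescent cells.

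On GRCh38, with GENCODE v44 gene models, LMNA lies on chromosome 1 from 156082573 to 156140081 on the plus strand. LMNB1 lies on chromosome 5 from 126776623 to 126837020 on the plus strand, and LMNB2 on chromosome 19 from 2427638 to 2456959 on the minus strand. LBR lies on chromosome 1 from 225401502 to 225428925 on the minus strand. HMGB1 lies on chromosome 13 from 30456704 to 30617597, and HMGB2 on chromosome 4 from 173331376 to 173334432, both on the minus strand. HMGB3 lies on the X chromosome from 150980509 to 150990771, HMGA1 on chromosome 6 from 34236873 to 34246231, and HMGA2 on chromosome 12 from 65824460 to 65966291, all on the plus strand. Exons of HMGA2 share 384 bases (2.55% of its exon bases) with the antisense gene HMGA2-AS1, and no source used here states whether reads were counted by strand. Of all 50-base words in the main transcript, 33.8% recurred elsewhere in the genome for HMGB1, 21.1% for HMGA1 and 13.6% for HMGB3, which have many processed copies, so the levels of these 3 genes are uncertain. That share was at most 0.767% for each of the other 6 genes, and it was 0 for LMNB1 and LBR. The testis gene HMGB4 had 0 reads in all 12 libraries, and the copy HMGB3P1 had at most 3.

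The promoters of members that were at least 2-fold lower after irradiation are shown because these genes all fell in that comparison. Sequences are from RefSeq (GRCh38.p14), which matched 7 of the 9 members, 5 of them at the start of the main transcript. HMGB2 and HMGA2 had no entry. The 250 bases before each start were searched on both strands for CCAAT, for the words TTTGAA and TTTAAA found in cell cycle homology regions (CHR), and for E2F-type words. The latter were TTTCGCG and its variant TTTGGCG. Counted with them was TTTCCCG. Also counted with them was TTTGCCG. No word of one kind holds a word of another kind. Capitals mark every match, and ATTGG is CCAAT read on the other strand.
LMNB1 first start, chr5:126776373-126776622, plus strand: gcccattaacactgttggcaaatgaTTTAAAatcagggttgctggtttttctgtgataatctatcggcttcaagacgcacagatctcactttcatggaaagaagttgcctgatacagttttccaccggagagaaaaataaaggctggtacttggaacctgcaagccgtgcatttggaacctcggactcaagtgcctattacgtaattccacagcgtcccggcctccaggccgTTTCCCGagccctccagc
LMNB1 main start, site 1, chr5:126776933-126776962, plus strand: caagggccagatTTTAAAtttacaggcccg
LMNB1 main start, site 2, chr5:126776985-126777014, plus strand: ctgcctgctccccATTGGcccatggtagtc
LMNB2, chr19:2456960-2457209, minus strand: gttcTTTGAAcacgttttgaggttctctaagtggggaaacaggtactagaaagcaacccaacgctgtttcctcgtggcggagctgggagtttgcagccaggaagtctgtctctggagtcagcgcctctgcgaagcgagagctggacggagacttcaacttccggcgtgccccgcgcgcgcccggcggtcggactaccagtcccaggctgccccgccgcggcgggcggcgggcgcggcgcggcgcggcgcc
HMGB1, chr13:30465939-30466186, minus strand: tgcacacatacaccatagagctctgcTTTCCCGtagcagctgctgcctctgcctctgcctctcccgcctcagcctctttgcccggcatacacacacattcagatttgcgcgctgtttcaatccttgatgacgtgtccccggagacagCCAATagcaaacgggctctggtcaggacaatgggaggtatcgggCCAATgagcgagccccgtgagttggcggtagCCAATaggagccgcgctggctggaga
HMGB3, chrX:150983085-150983334, plus strand: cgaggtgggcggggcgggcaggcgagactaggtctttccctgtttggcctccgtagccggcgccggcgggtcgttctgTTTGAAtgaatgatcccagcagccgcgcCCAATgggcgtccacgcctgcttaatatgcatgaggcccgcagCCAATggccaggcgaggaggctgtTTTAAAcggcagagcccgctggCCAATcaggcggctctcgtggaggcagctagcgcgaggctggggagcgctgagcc
Only the 2 matches are printed for the main LMNB1 start, because the bases around them lie in an exon of another LMNB1 transcript. The first start of that gene has a window of its own. The LBR entry is not printed because its window reaches into the annotated LBR gene, and HMGB1 is shown without the 2 bases next to the start, which lie in an exon.

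At their main starts HMGB1 and HMGB3 each had 3 CCAAT words, a number reached by 2.93% of 35116 promoter windows. In HMGB1 they began 103, 59 and 28 bases before the start, and in HMGB3 they began 144, 101 and 55 bases before it. The other 2 HMGB1 entries had 1 and 0 CCAAT words, and the other HMGB3 entry had 0. At least 1 CCAAT was present in 32.0% of all windows, a CHR word in 21.9% and an E2F-type word in 7.33%. At its main start HMGB3 also had 2 CHR words, and 5.01% of windows had 2 or more. HMGB1 also had 1 E2F-type word at its main start. The main LMNB1 start had 1 CCAAT and 1 CHR word, and its first start had 1 CHR and 1 E2F-type word. The LMNB2 start had 1 CHR word only, and the LBR entry, which is not at the main start, had 1 CHR word. These shares are per window and per kind of word, and several kinds and entries were searched. Such words were not limited to the genes that fell far: HMGA1 had 1 CHR word at its main start and 1 CCAAT at its other entry, and 1 of the 3 LMNA entries had 1 word of each kind. A match is a run of letters and not a shown binding site.

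Reads recovered from the deposited values ranged from 14106799 to 21762412 per library over the listed genes. Libraries A126 (proliferating) and A120 (palbociclib) stood farthest from the others of their groups, so the counts of called members were also taken without both, a choice made after seeing the data. They were then 9 in each comparison with proliferating cells, 7 instead of 5 for palbociclib against DMSO (HMGA1 lower and HMGA2 higher in addition), 1 instead of 0 for ruxolitinib against DMSO (HMGB2) and 5 instead of 4 for palbociclib against ruxolitinib (HMGA2 higher in addition). All 8 fibroblast markers were present, with a summed level of 403689 to 847555 normalized counts per library. Epithelial markers (2 of 5 with a mean of at least 10) summed to 99.0 to 143 in proliferating, 266 to 309 in DMSO, 376 to 501 in palbociclib and 297 to 348 in ruxolitinib libraries. Endothelial markers (1 of 4) summed to at most 9.34, 50.9, 35.0 and 56.7 in these groups, and smooth muscle markers (2 of 3) to 164 to 182, 191 to 222, 125 to 148 and 203 to 243. Immune markers (2 of 5, CD68 and CD14) summed to 546 to 571, 1232 to 1307, 701 to 807 and 1074 to 1150 in the same order. No marker was at 0 in all 12 libraries, and the part of these other markers in the results was not tested.

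The 12 cycling markers, genes transcribed in dividing cells such as MKI67 and CDK1, were lower in irradiated libraries and lowest with palbociclib, as were LMNB1 and HMGB2, whereas HMGA2 was higher in irradiated libraries. Their summed level was 54578 to 62085 normalized counts in proliferating libraries, 6825 to 7235 with DMSO, 1648 to 1801 with palbociclib and 5362 to 5454 with ruxolitinib. In these bulk libraries, fewer cells with a transcript and less of it per cell cannot be told apart. The part of cycling cells in the results below was not tested.

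In DMSO-treated senescent cells, 8 of the 9 genes were lower than in proliferating cells and HMGA2 was higher. LMNB1 had dropped furthest, to 3.91% of its proliferating level, followed by HMGB2 at 10.7%. HMGB3, LBR, HMGB1 and LMNB2 were left at 17.3% to 23.9%, whereas LMNA and HMGA1 kept 69.2% and 74.4%. All 9 genes were called with limma at an adjusted p under 0.05, beside 72.4% of all tested genes (39.3% called lower), so that count is near the background. A fall of at least 2-fold was called for 6 of the 9 genes, beside 8.98% of tested genes. The median log2 difference was -2.16 over the 9 genes and -0.05 over all tested genes. All 9 genes had groups that did not overlap, beside 75.1% of tested genes.

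**Figure D1:**
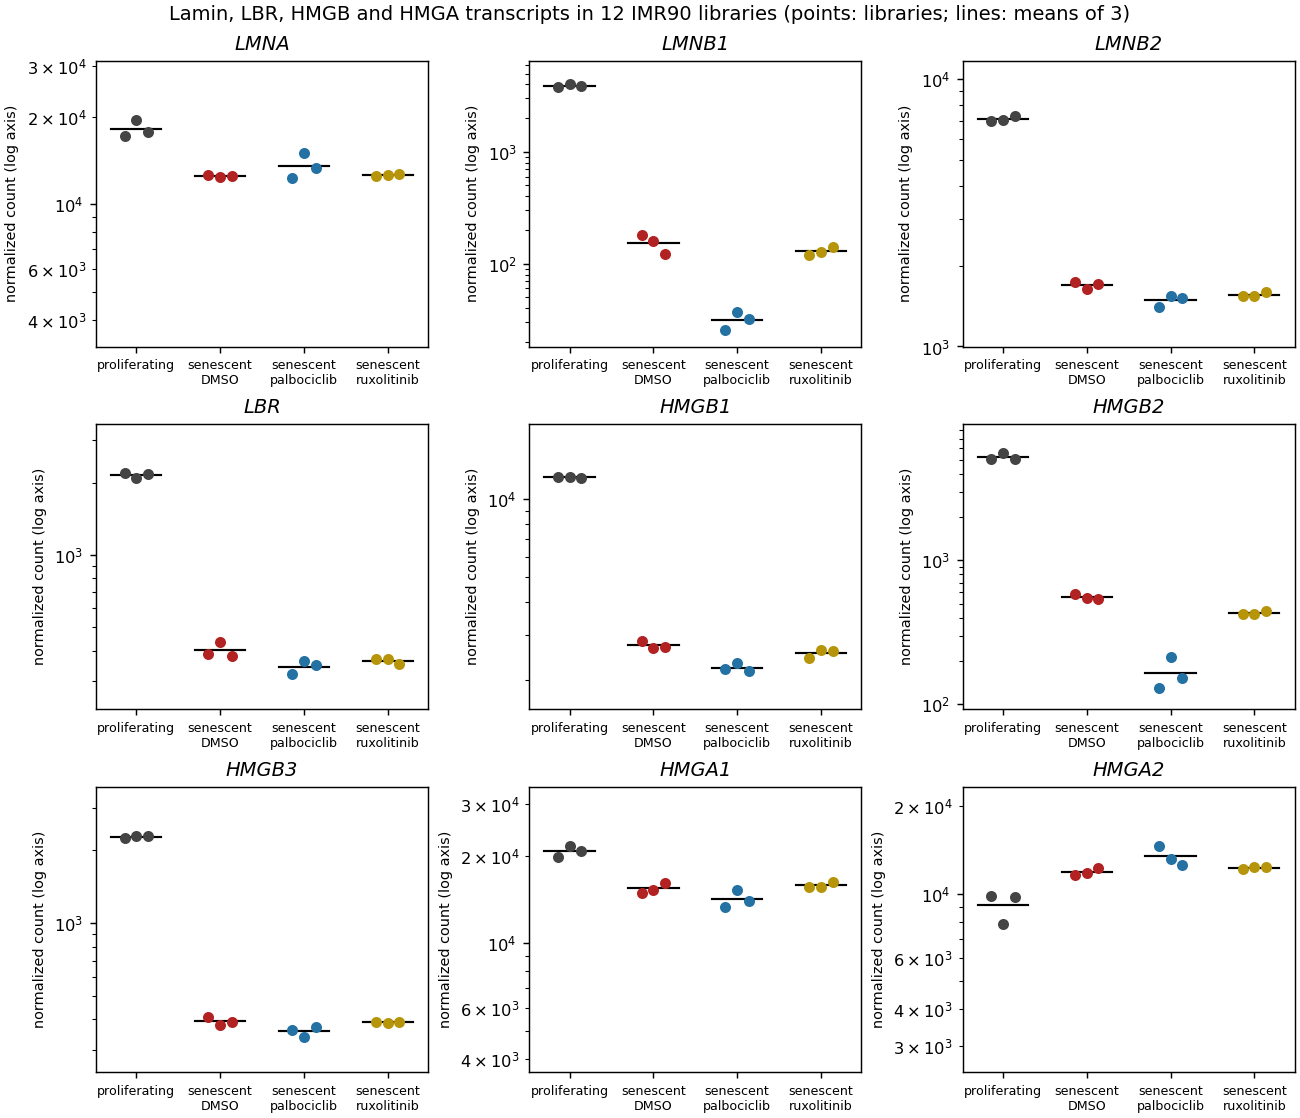
Normalized counts of the 9 genes (vertical axes, logarithmic, each panel with its own range) in proliferating cells and in irradiated cells given DMSO, palbociclib or ruxolitinib; points are the 3 libraries of a group and lines their means. LMNB1 and HMGB2 lie highest in proliferating and lowest in palbociclib libraries (25.5 to 37.2 and 129 to 213), whereas LMNA and HMGA1 stay at or above 12313 in every library and HMGA2 lies lowest in proliferating cells.

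LMNB1 encodes lamin B1. It read 3784, 4045 and 3905 normalized counts in proliferating libraries, 179, 159 and 121 with DMSO, 25.5, 37.2 and 32.0 with palbociclib, and 119, 126.1 and 142 with ruxolitinib. Each proliferating library was far above all 9 irradiated ones, and the palbociclib libraries lay below every other library. With palbociclib these levels rested on 23, 34 and 36 reads. LMNB1 fell by 4.68 on the log2 scale with DMSO against proliferating cells (SE 0.14, limma adjusted p = 2.2e-13), a 25.7-fold lower level on the log2(normalized count + 1) scale. This was the most negative difference of the 11242 tested genes in that fit.

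LMNB2 encodes lamin B2, the other B-type lamin. It read 6990.4, 7014 and 7307 normalized counts in proliferating libraries, 1736, 1639.6 and 1710.2 with DMSO, 1399.9, 1546 and 1523 with palbociclib, and 1542, 1542 and 1598 with ruxolitinib. The drop after irradiation was shared by all 9 senescent libraries, and the inhibitor libraries lay just under the DMSO ones without overlap. LMNB2 fell by 2.07 on the log2 scale with DMSO (SE 0.05, limma adjusted p = 2.8e-14).

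LMNA read 17122, 19424 and 17787 normalized counts in proliferating libraries, 12631, 12428 and 12522 with DMSO, 12313, 15056 and 13370.3 with palbociclib, and 12462, 12589.8 and 12705 with ruxolitinib. Palbociclib libraries were the most scattered and spanned both sides of the DMSO range. LMNA fell by 0.53 with DMSO (SE 0.07, limma adjusted p = 2.3e-06), a 1.44-fold lower level. A count per gene cannot separate lamin A from lamin C transcripts.

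LBR read 2198, 2096 and 2177 normalized counts in proliferating libraries, 389, 436 and 379 with DMSO, 319.8, 362 and 349 with palbociclib, and 369.6, 371 and 351 with ruxolitinib. Senescent libraries of all 3 kinds lay within a narrow band far below the proliferating ones. LBR fell by 2.43 with DMSO (SE 0.07, limma adjusted p = 1.4e-13), a 5.37-fold lower level.

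HMGB2, a box protein known for high expression in dividing cells, read 5037, 5553 and 5071 normalized counts in proliferating libraries, 580.0, 552 and 537 with DMSO, 129, 213 and 153 with palbociclib, and 425, 422 and 447 with ruxolitinib. No library of one group reached the range of another. HMGB2 fell by 3.23 with DMSO (SE 0.12, limma adjusted p = 3.0e-12), a 9.37-fold lower level.

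HMGB1, which encodes the box protein released as an alarm signal, read 12256, 12217 and 12119 normalized counts in proliferating libraries, 2844, 2667 and 2680.4 with DMSO, 2204, 2334 and 2159 with palbociclib, and 2427, 2621 and 2599 with ruxolitinib. The DMSO libraries lay highest among the irradiated ones, the palbociclib libraries lowest, and the 3 ranges did not touch. HMGB1 fell by 2.16 with DMSO (SE 0.05, limma adjusted p = 1.5e-14). Its counts describe transcripts and carry nothing on where the protein is in the cell or whether it is secreted.

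HMGB3 read 2240.2, 2281 and 2294 normalized counts in proliferating libraries, 408, 380.0 and 391 with DMSO, 362, 339 and 372 with palbociclib, and 389, 386 and 392 with ruxolitinib. Palbociclib libraries were just below the DMSO range, and ruxolitinib libraries lay inside it. HMGB3 fell by 2.53 with DMSO (SE 0.06, limma adjusted p = 2.0e-14).

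HMGA1 read 19815, 21605 and 20773 normalized counts in proliferating libraries, 14884, 15274 and 16131 with DMSO, 13337, 15220.3 and 13962 with palbociclib, and 15572, 15613 and 16167 with ruxolitinib. Proliferating libraries lay above all irradiated ones, which overlapped in part. HMGA1 fell by 0.43 with DMSO (SE 0.06, limma adjusted p = 5.0e-06).

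HMGA2 was the member that went up. It read 9823, 7839.8 and 9706 normalized counts in proliferating libraries, 11624, 11803 and 12225 with DMSO, 14609.9, 13169 and 12564 with palbociclib, and 12175, 12322 and 12401 with ruxolitinib. Every irradiated library was above every proliferating one, among which A126 was lowest. HMGA2 rose by 0.39 with DMSO (SE 0.08, limma adjusted p = 2.5e-04), a 1.31-fold higher level.

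Scaling every library to the same total moved the median tested gene by 0.23 between DMSO and proliferating cells and by -0.23 between palbociclib and DMSO, so differences are relative to the authors' scaling. Among genes called in DMSO against proliferating cells, the share called higher was 45.7% as deposited, 64.0% with the same total and 58.1% with the same upper quartile. With the same total LMNA fell by 0.30 and HMGA1 fell by 0.20, whereas HMGA2 rose by 0.62. All 9 genes kept their direction and their call in that comparison under all 23 alternatives run, which included edgeR, DESeq2 and leaving out each library.

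**Figure D2:**
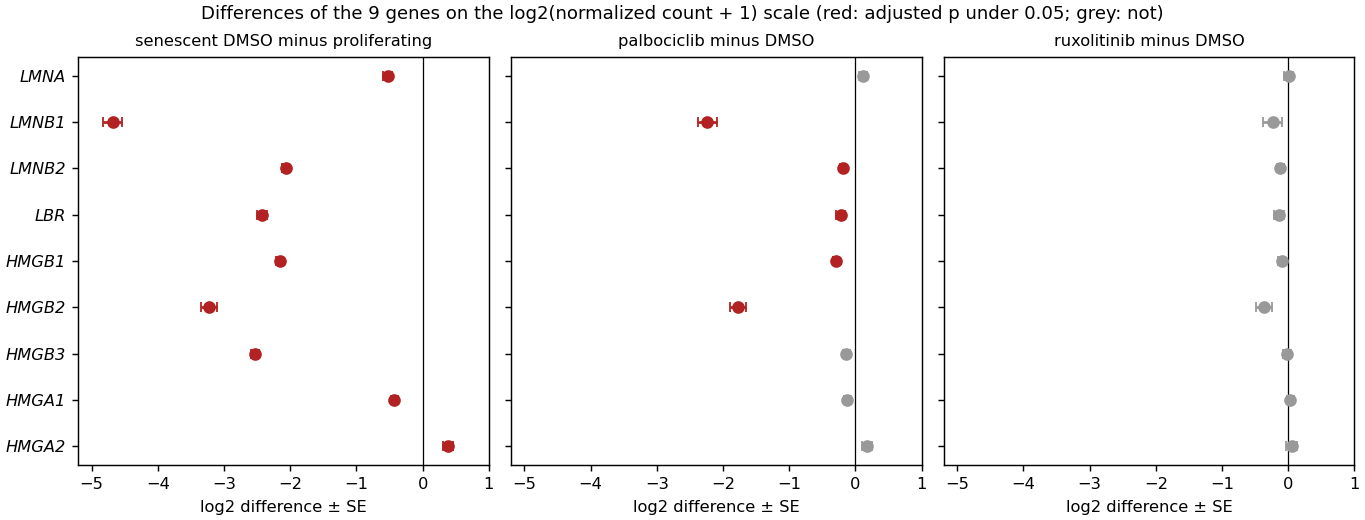
Difference of each gene on the log2(normalized count + 1) scale (horizontal axis) with its standard error, for DMSO against proliferating cells, palbociclib against DMSO and ruxolitinib against DMSO; red points had a limma adjusted p under 0.05. LMNB1 lies at -4.68 and -2.24 in the first and middle panels, and all 9 points are grey in the last.

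Levels of different genes were compared per kb of the main transcript. In proliferating cells the order was HMGA1 (10798 ± 466 normalized counts per kb, SD, n = 3), LMNA (5699 ± 373), HMGB2 (3623 ± 200.4), HMGB1 (2236 ± 12.9), HMGA2 (2216 ± 270.3), LMNB2 (1533 ± 38.0), LMNB1 (1353 ± 45.1), HMGB3 (648 ± 8.01) and LBR (575 ± 14.3). HMGB1 and HMGA2 did not differ beyond their spread. In DMSO-treated senescent cells HMGA1 (8036 ± 332), LMNA (3942 ± 32.1) and HMGA2 (2886 ± 74.9) led, and HMGB1 followed at 500.4 ± 18.0. HMGB2 (386 ± 15.3) and LMNB2 (366 ± 10.8) were within their summed SDs of each other, as were HMGB3 (112 ± 4.00) and LBR (107 ± 8.04). LMNB1 was last at 53.0 ± 10.1, although it had stood close to LMNB2 in proliferating cells. With palbociclib LMNB1 was again last, at 10.9 ± 2.04.

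With palbociclib, 5 of the 9 genes were lower than with DMSO: LMNB1, HMGB2, HMGB1, LBR and LMNB2. LMNB1 and HMGB2 dropped several-fold further, to 0.807% and 3.17% of the proliferating level, whereas the other 3 moved by less than 0.30 on the log2 scale. The 5 calls (limma adjusted p under 0.05) stand beside 48.3% of tested genes called either way and 22.3% called lower. A fall of at least 2-fold was called for 2 of the 9 genes, beside 5.39% of tested genes. The median log2 difference was -0.19 over the 9 genes and 0.02 over all tested genes. Groups did not overlap for 7 of the 9 genes, all but LMNA and HMGA1, beside 54.8% of tested genes.

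LMNB1 fell by 2.24 on the log2 scale with palbociclib against DMSO (SE 0.14, limma adjusted p = 7.8e-09), a 4.73-fold lower level. HMGB2 fell by 1.78 (SE 0.12, limma adjusted p = 2.2e-08), a 3.42-fold lower level. These are also the genes with the lowest share of the proliferating level in DMSO-treated cells, and both comparisons use the same DMSO libraries. HMGB1 fell by 0.29 (SE 0.05, limma adjusted p = 2.0e-04) and LMNB2 fell by 0.19 (SE 0.05, adjusted p = 0.0070). LBR fell by 0.22 (SE 0.07, adjusted p = 0.017). The LBR call was lost when only the 2 groups were fitted (limma adjusted p = 0.067), without library A117 (0.091) and without library A119 (0.068).

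LMNA, HMGB3, HMGA1 and HMGA2 had no call with palbociclib. The log2 difference from DMSO was 0.11 for LMNA (SE 0.07, adjusted p = 0.17), -0.14 for HMGB3 (SE 0.06, adjusted p = 0.076), -0.12 for HMGA1 (SE 0.06, adjusted p = 0.081) and 0.18 for HMGA2 (SE 0.08, adjusted p = 0.067), all from limma. These sides of the threshold depended on the scaling and on single libraries. HMGB3 and HMGA1 were called lower with the same total (adjusted p = 1.7e-04 and 1.0e-04) and with edgeR (0.045 and 0.042). HMGA1 was called lower without A120 (adjusted p = 0.011). Without A126 or A121, HMGA2 was called higher (limma adjusted p = 0.011 and 0.046), and with the same total its difference was -0.05. LMNA was called higher without A119 (adjusted p = 0.024), and with the same total its difference was -0.12. With the same total the falls of HMGB1, LMNB2 and LBR became 0.52, 0.41 and 0.45, and the share called higher among all called genes went from 53.9% to 15.4%. It was 41.7% with the same upper quartile.

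Ruxolitinib left the 9 genes close to the DMSO level. None was called with limma at an adjusted p under 0.05, beside 4.52% of tested genes. At an unadjusted p under 0.05 the count was 2 (LMNB2 and HMGB2), edgeR called 0 and DESeq2 called 1, HMGB2. The median log2 difference was -0.10 over the 9 genes and -0.00 over all tested genes. Groups did not overlap for LMNB2, LBR, HMGB1 and HMGB2, which makes 4 of 9 beside 31.9% of tested genes.

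HMGB2 had the lowest difference with ruxolitinib, at -0.37 on the log2 scale (SE 0.12, limma adjusted p = 0.13). Its ruxolitinib libraries, at 422 to 447 normalized counts, all lay under the DMSO libraries, at 537 to 580.0. Its call rested on how the spread was estimated: the adjusted p was 1.1e-04 when limma was fitted to the 2 groups alone, 0.0062 with DESeq2, 0.027 without the palbociclib library A119 and 0.0029 without A120. LMNB1 had a difference of -0.23 (SE 0.14, adjusted p = 0.49), and its libraries overlapped with those of DMSO. LMNB2 differed by -0.12 (SE 0.05, adjusted p = 0.26, and 0.046 in the fit of 2 groups). The other 6 differences lay between -0.14 for LBR and 0.05 for HMGA2, each with a limma adjusted p of at least 0.35.

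The inhibitors were compared with each other directly, at the same dose and days. Both had also been compared with the same DMSO libraries, so those contrasts are not independent. Palbociclib minus ruxolitinib was -2.01 for LMNB1 and -1.41 for HMGB2 on the log2 scale (limma adjusted p = 3.9e-08 and 3.9e-07). It was -0.19 for HMGB1 (adjusted p = 0.0062) and -0.16 for HMGA1 (adjusted p = 0.036). These 4 of 9 calls, all lower, stand beside 40.4% of tested genes called, and 6 of 9 genes had groups that did not overlap, beside 51.8%. The remaining 5 genes differed by -0.12 (HMGB3) to 0.13 (HMGA2) without a call. The HMGA1 call was lost under 8 of 23 alternatives. Scaled to the same total, 7 genes were called lower, and the share called higher over all called genes went from 56.4% to 15.7% (38.7% with the same upper quartile).

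Against proliferating cells, all 9 genes were called with palbociclib and with ruxolitinib (limma), beside 73.8% and 72.2% of tested genes. LMNB1 fell by 6.92 with palbociclib and fell by 4.92 with ruxolitinib on the log2 scale. HMGB2 differed by -5.00 and -3.59. HMGA2 rose by 0.56 and 0.44, the one member that was higher in each senescent group. For ruxolitinib the share called higher moved from 45.2% to 61.6% with the same total.

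Genes of a family changed by different amounts within the same libraries. The difference between 2 family members in log2(normalized count + 1) was taken in each library, which cancels gene length and nearly cancels library scaling. Over 7 pairs and 6 comparisons, the groups did not overlap in 37 of 42 cases, each at an exact two-sided permutation p of 0.1, the smallest that 3 against 3 libraries allow (0.11 after adjustment). No case can therefore pass 0.05, and the values are given with their spread. The 42 cases share genes and groups, so they are not independent. The share for other pairs of genes was not computed, so the count of 37 has no background. Single tested genes had groups without overlap in 75.1% for DMSO against proliferating cells and 54.8% for palbociclib against DMSO. The shares were 31.9% for ruxolitinib against DMSO and 51.8% for palbociclib against ruxolitinib.

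LMNB1 minus LMNB2 was -0.86 ± 0.06 (SD, n = 3) in proliferating libraries. It was -3.48 ± 0.29 with DMSO, -5.53 ± 0.19 under palbociclib and -3.59 ± 0.10 under ruxolitinib. Lamin B1 transcripts thus lost 2.62 more than lamin B2 transcripts after irradiation and another 2.05 more with palbociclib. LMNB2 minus LMNA went from -1.35 ± 0.10 in proliferating cells to -2.89 ± 0.03 with DMSO and -3.18 ± 0.09 with palbociclib. B-type lamin transcripts lost ground to the A-type gene in every irradiated group.

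HMGB2 minus HMGB1 was -1.23 ± 0.08 in proliferating libraries, -2.29 ± 0.02 in DMSO, -3.78 ± 0.32 under palbociclib and -2.56 ± 0.06 under ruxolitinib. The 4 groups did not overlap for this pair. HMGB3 minus HMGB1 moved less, from -2.42 ± 0.03 to -2.79 ± 0.02 with DMSO, and its palbociclib libraries overlapped with those of both other irradiated groups. HMGA2 minus HMGA1 went from -1.19 ± 0.24 in proliferating libraries to -0.38 ± 0.02 in DMSO, -0.08 ± 0.18 under palbociclib and -0.36 ± 0.02 under ruxolitinib. HMGA transcripts thus shifted towards HMGA2, and DMSO and ruxolitinib libraries overlapped.

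**Figure D3:**
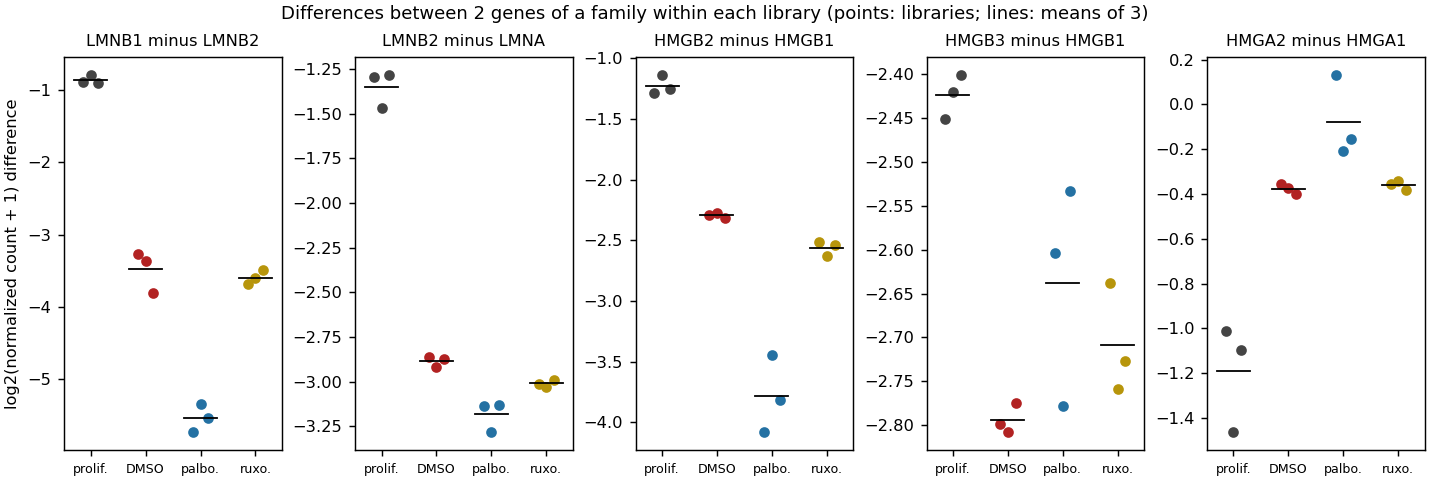
Difference between 2 genes of a family within each library, in log2(normalized count + 1) (vertical axes, each panel with its own range), by group; points are libraries and lines the means of 3. LMNB1 minus LMNB2 drops from -0.86 in proliferating cells to -3.48 with DMSO and -5.53 with palbociclib, whereas HMGA2 minus HMGA1 climbs from -1.19 to -0.38 and -0.08.

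Other genes of the same structures were read from lists. Their counts of called genes stand beside the 72.4% of all tested genes called with DMSO against proliferating cells (39.3% lower, median -0.05) and the 48.3% called with palbociclib against DMSO (22.3% lower, median 0.02). Of 12 tested genes of the inner nuclear membrane and of the LINC complex, which couples the nucleus to the cytoskeleton, 8 fell and 3 rose with DMSO against proliferating cells (median -0.51), so 91.7% were called, beside 72.4% of all tested genes. TMPO, which encodes the lamina-associated polypeptide 2 proteins, fell by 3.19, from 5919 ± 464 to 646 ± 15.5 normalized counts (SD, n = 3). SYNE2 (nesprin 2) fell by 2.71 and SUN2 by 1.50. TOR1AIP1 rose by 0.40, SYNE1 by 0.39 and TOR1A by 0.22, of which the SYNE1 call was lost under 4 alternatives, among them without A126 (adjusted p = 0.14). With palbociclib against DMSO, TMPO fell by a further 0.96 and SYNE2 by 1.81, whereas 5 genes rose, led by SUN1 (0.32), ANKLE2 (0.31) and TMEM43 (0.26), all 3 of which lost their call with the same total. TMPO was also the 1 gene of this list called with ruxolitinib (8.33%), beside 4.52% of all tested genes. There TMPO fell by 0.34 (limma adjusted p = 0.0090), a call lost without A123 (0.0505) and without A124 (0.055).

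Of 6 lamin-processing genes, 3 fell and 2 rose after irradiation (median -0.42), and these 83.3% called are near the 72.4% of all tested genes. ZMPSTE24, the protease that matures prelamin A, rose by 0.41, and FNTA, a farnesyltransferase subunit, rose by 0.33. RCE1 fell by 0.69, NARF by 0.45 and ICMT, the methyltransferase of farnesylated proteins, by 0.40. With palbociclib, ICMT alone passed the test, and it rose by 0.38.

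Of 13 genes for the assembly of senescence heterochromatin foci and HP1 heterochromatin, 12 fell with DMSO and CABIN1 had no call (median -1.01), beside 39.3% of all tested genes called lower. The largest falls were of SUV39H1 (1.86), a histone H3 methyltransferase, CBX5 (1.72), which encodes HP1 alpha and binds LBR, and SUV39H2 (1.57). With palbociclib 3 fell further, and this 23.1% is near the 22.3% of all tested genes called lower. ASF1A fell by 0.45 (limma adjusted p = 8.4e-05), whereas MACROH2A2 (-0.24, adjusted p = 0.043) and MACROH2A1 (-0.16, adjusted p = 0.047) lost their calls under most of the libraries left out.

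Of 14 other genes with HMG motifs, 11 fell and 1 rose with DMSO (median -0.70), so 85.7% were called, beside 72.4% of all tested genes. HMGN2, which encodes a nucleosome-binding protein, fell by 2.32, SSRP1, a subunit of the histone chaperone FACT, fell by 1.89, and UBTF, a factor of ribosomal RNA transcription, fell by 1.07. TOX4 rose by 0.17, and this call was lost without A116 (adjusted p = 0.059). With palbociclib 3 fell and 1 rose, so 28.6% were called, beside 48.3% of all tested genes. HMGN2 fell by 0.38, SSRP1 by 0.22 and TFAM, the packaging protein of mitochondrial DNA, by 0.42. SMARCE1 rose by 0.24 and lost its call with the same total.

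All 12 cycling markers fell with DMSO (median -2.95) and again with palbociclib (median -2.24), and 9 of 12 fell with ruxolitinib (median -0.36), where 4.52% of all tested genes were called. MKI67 fell by 3.68, 3.60 and 0.53 in these 3 comparisons, AURKB fell by 3.74 after irradiation and PLK1 fell by 3.62. RRM2 fell by 3.17 and CDK1 by 3.16 with palbociclib. LMNB1 fell more than any of these 12 markers after irradiation, and with palbociclib its fall of 2.24 lay among theirs.

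**Figure D4:**
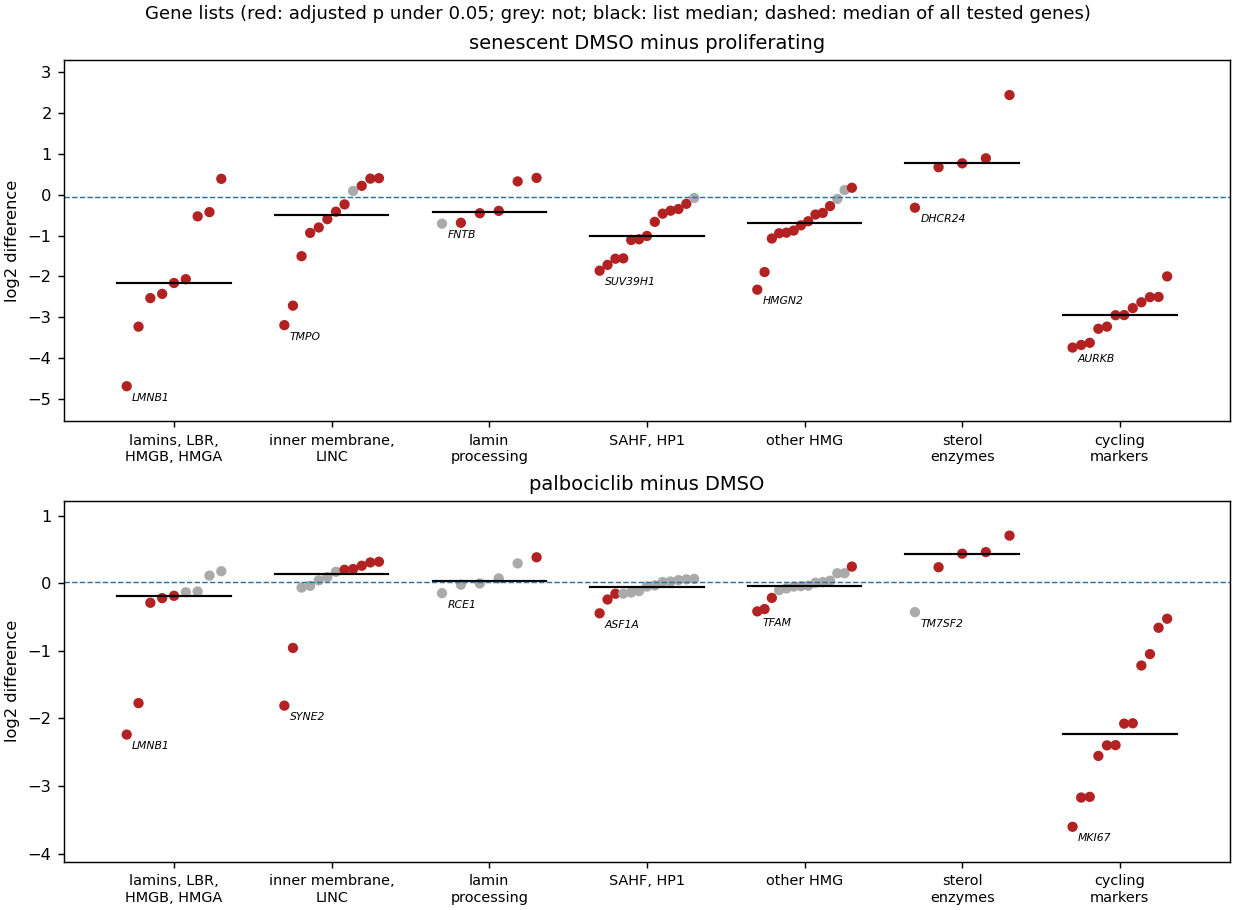
Difference of each tested gene on the log2(normalized count + 1) scale (vertical axes) in 7 lists, for DMSO against proliferating cells (top) and palbociclib against DMSO (bottom); red points had a limma adjusted p under 0.05, black lines are list medians, dashed lines the median of all tested genes, and the lowest gene of each list is named. After irradiation the lamin, LBR, HMGB and HMGA list has its median at -2.16 and the cycling markers at -2.95, and with palbociclib the medians are -0.19 and -2.24.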

How the data were processed

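RNA was sequenced from 12 IMR90 libraries, 3 in each of 4 groups. The authors deposited a table of normalized gene counts (a signal, never negative) with gene symbols and Entrez numbers up to 140467; genes with higher numbers were not analysed here. The submitters' processing notes name Trimmomatic 0.38.1, HISAT2 2.2.1, featureCounts 2.0.3, FastQC 0.74, MultiQC and DESeq2 2.11.40.8 with hg38 (GRCh38), and give no role or order. The annotation and the strand setting are not given in the sources used here. Of 160380 deposited values above 0, 160380 (100%) were whole multiples of what 1 read was worth in their library, within 0.01, so whole reads were recovered. Columns carry a group and a library number (A116 to A127) but no replicate number. Values of the 9 genes were compared on log2(normalized count + 1) with limma 3.58.1 (moderated variances that follow the mean level, R 4.3.3) in 1 model of 4 group means over 12 libraries, for genes with a mean of at least 10. P-values were adjusted by Benjamini-Hochberg over 11242 genes, and a gene was called under 0.05. All adjusted p-values are from this fit unless another tool is named; SE is the moderated standard error. The log2 scale with a pseudocount of 1 understates changes of low genes. Within-family differences used exact permutation tests over libraries, adjusted over 42 tests.

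Alternatives were pseudocounts of 0.1 and 5, a filter at 50 or none, rescaling of the libraries (equal totals or equal upper quartiles), limma with the trend switched off, a model restricted to the 2 groups compared, edgeR 4.0.16 (quasi-likelihood, TMM) and DESeq2 1.42.0 on recovered reads, leaving out each library, and leaving out A120 and A126 together, which was added after seeing the data. No pair of libraries of a group matched within counting noise. The fit was tested on simulated counts with known changes, of which it recovered most, with few calls among unchanged genes. Those changes were at least 2-fold and confined to a small part of the genes in the DMSO group. Recovery of smaller changes and the effect of scaling were not tested in this way. Named genes are the 9 members and up to 3 called genes with the largest change per list and direction. Every gene of a list of 5 or fewer is also named, as are the 3 genes outside the 9 members most like each member. Some genes that this rule names are not reported here. The members and lists were chosen with earlier results of these data known. Gene positions and main transcript (MANE) lengths are from GENCODE v44, promoters from RefSeq.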

Additional observations from a re-analysis of the deposited data

How the results depend on the processing

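Over the 9 genes, 6 comparisons and 23 alternatives, 1195 values kept their direction and their side of the threshold, 28 passed it newly, 11 no longer passed it and 8 turned direction. The cause was not tested. The reversals were in differences without a call: with the same total, LMNA went to -0.12, -0.018 and -0.097 in palbociclib against DMSO, ruxolitinib against DMSO and palbociclib against ruxolitinib, and HMGA2 to -0.051 and -0.076 in palbociclib against DMSO and against ruxolitinib. In ruxolitinib against DMSO, HMGB3 was 0.0019 with the same upper quartile; on leaving out 1 library each, HMGB3 ranged from -0.038 to 0.013 (without A116) and LMNA from -9.8e-05 (without A124) to 0.014. Counts of members called stayed at 9 against proliferating cells. In ruxolitinib against DMSO the count of 0 became 2 in the fit of 2 groups, 1 with DESeq2, 1 without A120 and A126 (chosen after seeing the data), and 0 to 1 without 1 library each. In palbociclib against ruxolitinib 4 became 7 with the same total and 3 to 4 without 1 library each. In palbociclib against DMSO 5 became 4 to 6 without 1 library each. HMGB3 and HMGA1 joined these 5 with the same total, with the same upper quartile and with edgeR. Within-family cases without overlap were 37 to 40 on leaving out 1 library each. Over all genes, palbociclib against DMSO went from 2927 higher and 2505 lower to 940 and 5170 with the same total. Palbociclib against ruxolitinib went from 2561 and 1983 to 847 and 4531 with the same total, and to 1701 higher with the same upper quartile. Ruxolitinib against DMSO went from 124 higher and 384 lower to 843 and 998 in the fit of 2 groups, 568 and 757 without A120 and A126, 38 to 238 and 220 to 489 without 1 library each, and 199 higher with DESeq2. No paired analysis was possible because the columns carry no replicate numbers, so the planned replicate block was not run. Depth limits LMNB1 with palbociclib most, at 23 to 36 reads.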

Other observations

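Several enzymes of cholesterol synthesis, in which LBR also acts as a sterol reductase, rose after irradiation, whereas LBR fell. TM7SF2, a sterol reductase that catalyses the same step as LBR, rose by 2.44 on the log2 scale with DMSO against proliferating cells (limma adjusted p = 3.8e-09), from 21.4 ± 5.55 to 118 ± 6.46 normalized counts (SD, n = 3). MSMO1 rose by 0.89, DHCR7 by 0.77 and CYP51A1 by 0.67. With palbociclib against DMSO, MSMO1 rose by 0.70, DHCR7 by 0.46 and CYP51A1 by 0.24, the last of which was 0.01 with the same total. TM7SF2 was lower by 0.43 without a call (limma adjusted p = 0.051, and 0.014 with edgeR). Of 5 receptors and coreceptors listed for extracellular HMGB1, AGER, TLR2, TLR4 and HAVCR2 were below the filter, with at most 9.47 normalized counts in any library. SDC1 fell by 0.95 after irradiation and by 0.95 again with palbociclib.

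HMGA2 is a known target of the let-7 miRNAs. Of 4 tested genes of that axis, IGF2BP1 and IGF2BP2 fell with DMSO (by 0.57 and 0.77), and DICER1 (-0.26, limma adjusted p = 0.051) and IGF2BP3 (0.13, adjusted p = 0.13) had no call, beside 72.4% of all tested genes called. With palbociclib IGF2BP1 fell by 0.22, a call lost without A120 (adjusted p = 0.056), and LIN28A was below the filter. Transcripts other than the 9 members were ranked by how closely their levels resembled each member. The measure was Pearson's r of log2(normalized count + 1) over 12 libraries, which share the step from proliferating to irradiated cells. The nearest to LMNB1 were FBXO5 (r = 0.998), PTTG1 and CDCA3, and to HMGB2 they were CDC20 (r = 0.999), MAD2L1 and CDCA3. Among the 9 irradiated libraries alone r was 0.99 for LMNB1 with FBXO5 and for HMGB2 with CDC20. Between the members LMNB1 and HMGB2, r was 0.998 over 12 libraries and 0.98 over these 9. The nearest to HMGB1 were HMGN2 (r = 0.999, and 0.97 in the 9 libraries), ANP32E and KNSTRN, to LMNB2 CDC25B, FBLN1 and KNSTRN, to LBR SEH1L, KPNA2 and CACYBP, and to HMGB3 PFAS and CCNI. LMNA was nearest to EBNA1BP2, DDX54 and DHPS, HMGA1 to DYNC2I2, UBE2S and MIDN, and HMGA2 to COG1, ATP6V1A and SETD7, with r of 0.97 to 0.99 over 12 libraries. Within the 9 irradiated libraries r was lower for several of these genes, at 0.58 for HMGB3 with CCNI, 0.78 for LBR with KPNA2 and with SEH1L, and 0.80 for HMGA2 with COG1, and it was 0.82 to 0.99 for the others named.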
